A study of Mus musculus with 6 samples.

Results

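Collagen chain genes were read in endothelial cells of the mouse cerebellum with and without Frizzled4, a receptor through which Norrin and Wnt ligands signal in brain and retinal vessels. A member was any gene whose symbol is that of a collagen alpha chain and that had a probe set annotated to this symbol alone, leaving out Col8a1 and Col8a2. This gave 40 genes of 18193 genes in all, read by 78 probe sets. Each gene took the value of its brightest probe set over the 6 arrays. By class, 8 were basement membrane chains (Col4a1 to Col4a6, Col15a1 and Col18a1), 11 were fibrillar chains and 21 were other chains. The other chains were 5 of type VI, 9 FACIT chains (fibril-associated collagens with interrupted triple helices), 4 transmembrane chains, and Col7a1, Col10a1 and Col26a1.

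Cells had been captured from cerebella at postnatal day 16 on magnetic beads carrying antibody to PECAM, an endothelial surface protein. The groups were 3 preparations from Fz4-/- mice and 3 from wild-type mice, all of mixed sex and a mixed C57Bl6/129 background, each hybridised to 1 Affymetrix array. The labels leave unsaid how the Fz4 allele was made and whether a preparation pooled animals. Values are log2 expression, differences are Fz4-/- minus wild type on the log2 scale, and errors are SD with n = 3 unless named as SE.

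Collagen chains assemble into trimers held in a glycine-rich triple helix. Type IV collagen forms the sheet-like network of the basement membrane under every endothelium, with the alpha 1 and alpha 2 chains as its general form and the alpha 3 to alpha 6 chains in restricted tissues. Collagens XV and XVIII are basement membrane proteoglycans, and a C-terminal piece of XVIII is endostatin, an inhibitor of vessel growth. Fibrillar collagens such as types I and III give tissues tensile strength and are made in the brain mainly by fibroblasts of the meninges and perivascular spaces.

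Col4a1 and Col4a2 lie head to head, as do Col4a3 with Col4a4 and Col4a5 with Col4a6. The stretch between the annotated starts of Col4a1 and Col4a2 is shown because this pair read alike on the arrays. No motif is marked in it, although it holds GGGCGG, the GC box counted below. On the plus strand it holds 22 bases at GRCm38.p6 chr8:11312805-11312826, both start bases included, the starts being 21 bases apart. Col4a1 is transcribed toward lower and Col4a2 toward higher coordinates.
Col4a1/Col4a2: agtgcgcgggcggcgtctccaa
The annotated starts of Col4a6 and Col4a5 lie 1343 bases apart.

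The 250 bases before the annotated starts of Col13a1 and Col15a1 are shown because these genes read higher on every Fz4-/- array than on the wild-type array of the same replicate number, and had larger differences than Col4a1 and Col4a2, which did so too, a choice made after their values were seen. Sequences are from RefSeq (GRCm38.p6), 5′ to 3′ on the gene's own strand. Col13a1 is on the minus strand at chr10:61979109-61979358, and Col15a1 on the plus strand at chr4:47207762-47208011. Other transcripts start farther upstream, so that 98 bases of the first stretch and all 250 of the second lie inside the annotated span of the gene. Capitals mark matches on either strand to CTTTGA (the core bound by Tcf/Lef factors, the nuclear arm of canonical Wnt signalling) and to TATAAA (the TATA box).
Col13a1: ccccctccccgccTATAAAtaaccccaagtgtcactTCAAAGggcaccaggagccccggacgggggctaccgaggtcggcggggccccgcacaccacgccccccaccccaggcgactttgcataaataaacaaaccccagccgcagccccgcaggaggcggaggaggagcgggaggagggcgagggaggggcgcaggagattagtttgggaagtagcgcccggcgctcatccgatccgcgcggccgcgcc
Col15a1: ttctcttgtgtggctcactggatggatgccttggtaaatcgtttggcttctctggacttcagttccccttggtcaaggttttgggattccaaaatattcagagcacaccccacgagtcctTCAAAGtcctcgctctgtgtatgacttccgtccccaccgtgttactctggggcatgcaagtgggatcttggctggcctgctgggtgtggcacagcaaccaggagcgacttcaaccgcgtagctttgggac
Each stretch holds 1 match to CTTTGA, whereas the windows of Col4a1 and Col4a2, which also read higher at every number, hold none. Col5a2 and Col14a1 read higher at every number too and are not shown, and no window was found for Col14a1. Among the genes with a match, Col19a1 read lower at every number (-0.51) and Col6a1 read -1.01. In windows of 300 bases (250 before to 50 after a start), found for 31 of the 40 genes as 34 windows, CTTTGA occurred in 9 windows (26.5%), against 16% of all 32851 windows. The GC box GGGCGG, searched on both strands as well, occurred in 20 collagen windows (58.8%) against 35.7% of all windows, among them those of Col4a1, Col4a2, Col4a5, Col4a6 and Col18a1 but not those of Col13a1 and Col15a1. Matches to CCAAT (38.2% against 37.4%) and TATAAA (14.7% against 13.6%) were found at close to the general share. A match describes letters in a window and was not tested for binding.

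No collagen chain gene passed the test between genotypes. With limma and Benjamini-Hochberg adjustment over all 45037 probe sets, 0 of 40 had an adjusted p under 0.05, where 0.022% of all genes did (0.0165% higher and 0.0055% lower in Fz4-/-), and 2 of 40 had an unadjusted p under 0.05 (4.6% of all genes). With the replicate number as a block the counts were 0 and 6, against 0% and 8.89% of all genes. The median difference over the 40 genes was -0.11, beside 0.01 over all genes, with 14 genes above 0 and 26 below, where 51.3% of all genes were above 0. Without Fz4-/- replicate 1 the median was 0.03, with 21 of 40 above 0. Members lay above the array median on all 6 arrays in 16 of 40 cases (53.6% of all genes), 7 of them basement membrane, 6 fibrillar and 3 other chains. By class the medians were 0.03 for basement membrane chains, -0.38 for fibrillar chains and -0.10 for other chains. These values describe the classes, and the difference between classes was not tested. Fzd4, the gene targeted, read 10.63 ± 0.37 in wild type and 3.69 ± 0.56 in the Fz4-/- arrays (adjusted p = 0.00965 in limma), and its adjusted p was 0.127 with the replicate block, under which no gene passed.

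The groups did not overlap for 3 of 40 collagen genes, 2 higher and 1 lower in the Fz4-/- arrays. Over all genes the shares were 4.59% higher, 4.95% lower and 9.54% in either direction, so the collagen count lies near the background. Leaving out 1 array moved the count to 5 without Fz4-/- replicate 1, 16 without replicate 2 and 6 without replicate 3. It was 6, 8 and 8 when wild-type replicate 1, 2 or 3 was dropped. A comparison of 3 against 2 arrays separates more easily, and the shares over all genes were then 17.7%, 19.3%, 19.7%, 15.1%, 14.3% and 29.5%. Without Fz4-/- replicate 2 the count of 16 of 40 lay above its share of 19.3%. Of these 16 genes, 2 were higher and 14 lower in Fz4-/-, the latter including Col1a1, Col1a2, Col3a1 and Col4a5.

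**Figure D1:**
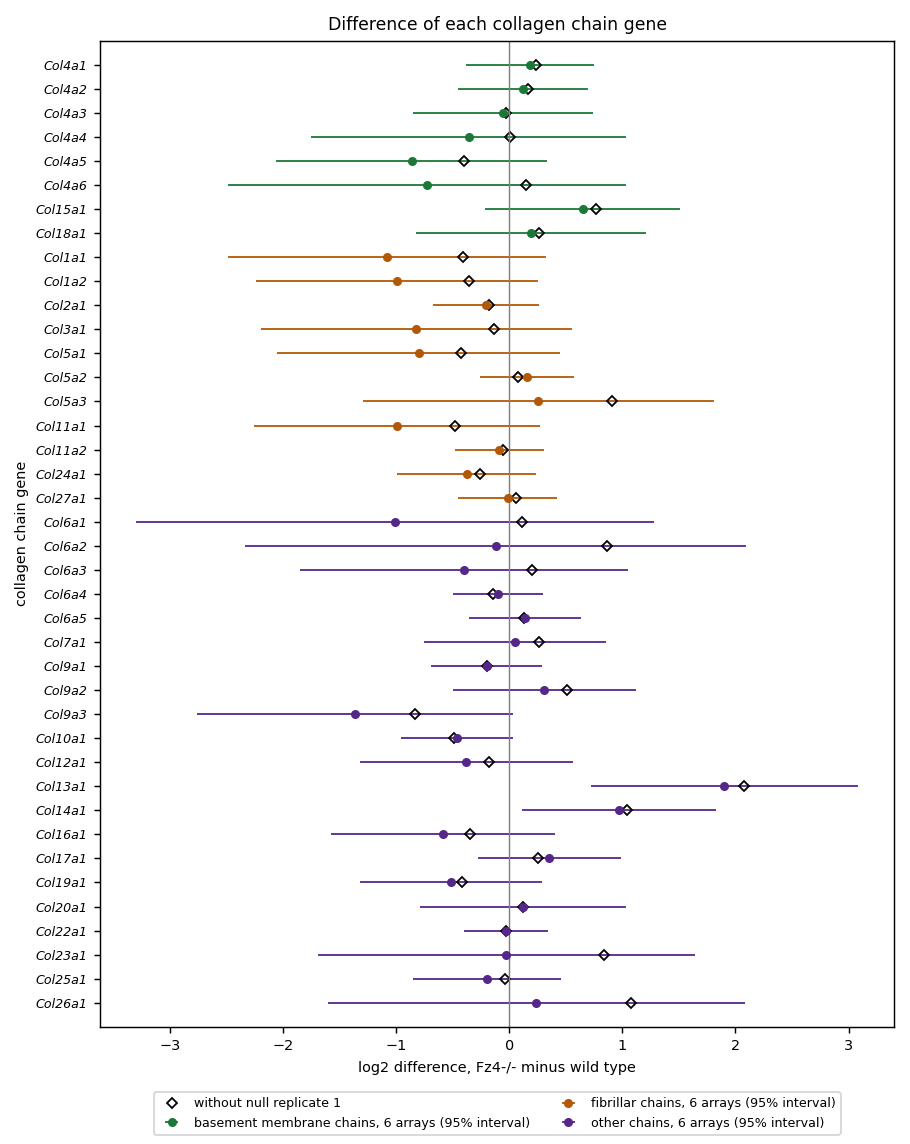
Log2 difference (Fz4-/- minus wild type) of each of the 40 collagen chain genes by class, as filled points with 95% intervals from limma over 6 arrays, and as open diamonds without Fz4-/- replicate 1. The intervals of Col13a1 and Col14a1 lie above 0, all others include 0, and most fibrillar and type VI points move toward or past 0 without that array.

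Collagens are made by several cell types, whose markers varied between the arrays. All 16 endothelial markers, among them the receptors Flt1 and Ptprb, lay above the array median on all 6 arrays, where 53.6% of all genes did. So did 13 of 14 pericyte and smooth muscle markers and 9 of 16 fibroblast and meningeal markers. The counts were 7 of 10 for astrocyte and Bergmann glia, 4 of 11 for microglia and macrophage and 1 of 10 for choroid plexus markers. Fz4-/- replicate 1 stood apart in genes of other cells. Its median deviation from the wild-type mean was -2.40 for 16 fibroblast and meningeal markers, -1.33 for 14 pericyte and smooth muscle markers, -2.74 for 11 microglia and macrophage markers and -1.88 for 10 astrocyte and Bergmann glia markers, and 0.22 for endothelial markers. The other 2 Fz4-/- arrays lay at 0.82 and -0.07 for fibroblast markers and at -0.05 and 0.25 for mural markers. The 10 choroid plexus epithelium markers lay between -1.77 and -1.63 on all 3 Fz4-/- arrays and at -0.63, -0.94 and 1.71 on wild-type replicates 1 to 3. Their median difference was -1.68, and -0.94 without wild-type replicate 3. In bulk samples, fewer cells of a type and less RNA per cell cannot be told apart.

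**Figure D2:**
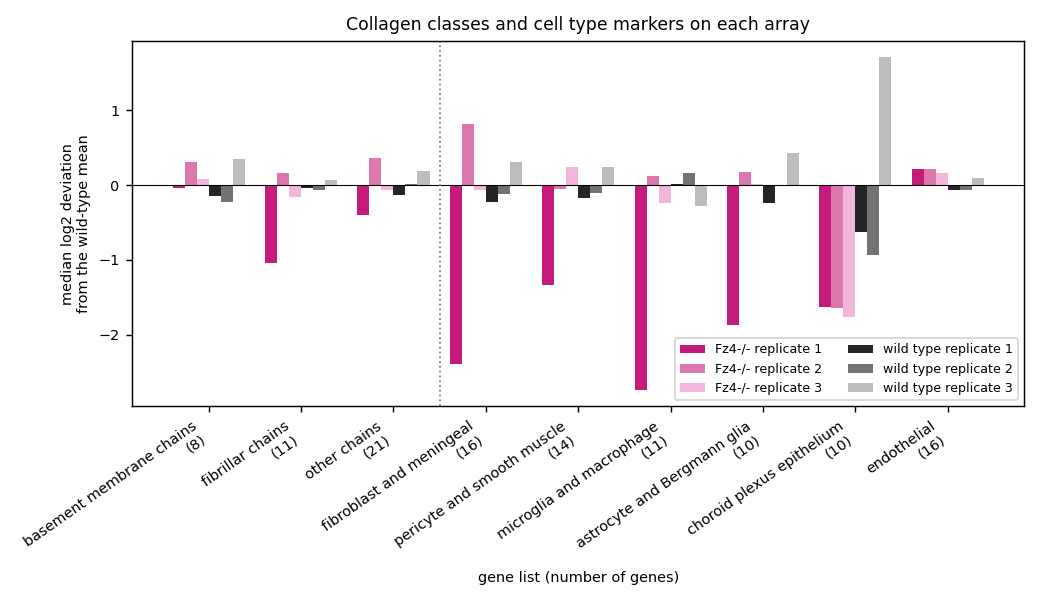
Median log2 deviation from the wild-type mean, on each of the 6 arrays, of the 3 collagen classes (left of the dotted line) and of marker lists for 6 cell types, with the number of genes in brackets. Fibrillar chains lie at -1.05 on Fz4-/- replicate 1, where fibroblast markers lie at -2.40, while basement membrane chains lie at -0.04 on that array. That class median joins 6 type IV chains at -0.60 with Col15a1 and Col18a1 at 0.24, parts not drawn here.

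Among the basement membrane chains, the main vascular pair, Col4a1 and Col4a2, differed by less than the spread between replicates. Col4a1 encodes the alpha 1 chain of the general type IV network. It read 13.07, 12.96 and 13.47 on Fz4-/- replicates 1 to 3 and 12.84, 12.78 and 13.35 on wild-type replicates 1 to 3. The arrays numbered 3 were high in both genotypes and the groups overlapped. The difference was 0.18 (95% interval -0.39 to 0.75, adjusted p = 1 in limma), and a dimmer probe set gave 0.22.

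Col4a2, its partner, read 12.60, 12.46 and 13.02 on the Fz4-/- arrays and 12.41, 12.38 and 12.92 on the wild-type arrays. Its difference was 0.12 (95% interval -0.45 to 0.70), and -0.04 without Fz4-/- replicate 3. By replicate number the 2 genes differed in the same direction each time, by 0.24, 0.19 and 0.13 for Col4a1 and by 0.19, 0.08 and 0.10 for Col4a2. The arrays thus put each Fz4-/- value slightly above the wild-type value of its number, by less than the spread within either genotype. The upper ends of both intervals lie below 1, the log2 size of a 2-fold change.

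The multiplexin chain Col15a1 read higher in the Fz4-/- arrays without passing the test. Its values were 8.58, 8.55 and 9.32 against 7.76, 7.88 and 8.85 in wild type. Only wild-type replicate 3 reached into the Fz4-/- range. The difference was 0.65 (SE 0.36, 95% interval -0.21 to 1.51, 1.57-fold, adjusted p = 1 in limma), and by replicate number it was 0.82, 0.66 and 0.46. Its adjusted p was 0.487 with the replicate block. Without wild-type replicate 3 the difference was 0.99 and the groups did not overlap, while it was 0.40 without Fz4-/- replicate 3 and 0.44 without wild-type replicate 1.

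Col18a1, the source of endostatin, read 9.75, 9.25 and 10.64 in the Fz4-/- arrays and 9.27, 9.45 and 10.34 in wild type. Arrays numbered 3 were again the highest of each genotype. The difference was 0.19 (95% interval -0.83 to 1.21), and by replicate number it was 0.47, -0.19 and 0.30. Dropping Fz4-/- replicate 3 gave -0.19, and dropping wild-type replicate 1 gave -0.01.

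The remaining type IV chains had larger SDs in the Fz4-/- arrays (0.65 to 1.58) than in wild type (0.18 to 0.41), a difference that was not tested. Col4a3 read 8.05, 8.78 and 7.49 against 8.18, 8.33 and 7.98 in wild type, a difference of -0.06 (95% interval -0.85 to 0.74) that was 0.25 without Fz4-/- replicate 3 and 0.03 without wild-type replicate 2. Its head-to-head neighbour Col4a4 read 5.98, 8.15 and 6.01 against 7.39, 6.80 and 7.03. In both genes Fz4-/- replicate 2 was the highest of the 6 arrays. The Col4a4 difference was -0.36 (95% interval -1.75 to 1.03) and 0.01 without Fz4-/- replicate 1, where the 2 Fz4-/- values left were 8.15 and 6.01, and its dimmer probe sets read 0.14 and -0.12.

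Col4a5 and Col4a6, the X-linked pair, were lowest on Fz4-/- replicate 1. Col4a5 read 7.34, 9.35 and 8.10 against 9.35, 9.36 and 8.67 in wild type, a difference of -0.86 (SE 0.50, 95% interval -2.06 to 0.34, 1.82-fold). It was -0.40 without Fz4-/- replicate 1 and -1.41 without Fz4-/- replicate 2. Col4a6 read 4.53, 7.61 and 6.72 against 6.88, 6.68 and 7.47, a difference of -0.73 (95% interval -2.49 to 1.03) that was 0.15 without replicate 1 and -1.39 without replicate 2. Fibroblast markers were at -2.40 on replicate 1 and 0.82 on replicate 2, and their part in these values was not tested.

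**Figure D3:**
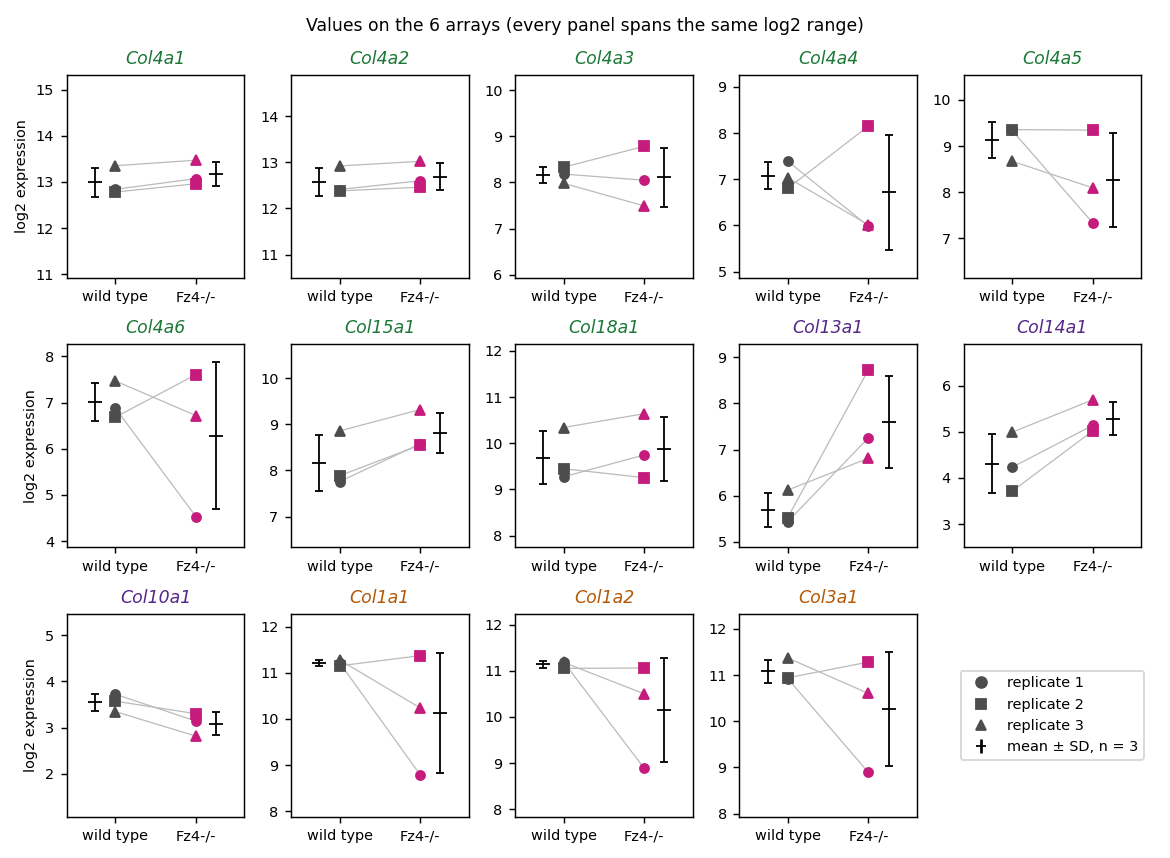
Log2 expression on the 6 arrays of the 8 basement membrane chains (green titles), 3 other chains whose groups did not overlap (purple) and 3 fibrillar chains (orange), with symbols for the replicate number, grey lines between equal numbers and black bars for mean ± SD (n = 3). Every panel spans the same log2 range, and Col4a1, Col4a2, Col15a1, Col13a1 and Col14a1 lie higher in Fz4-/- at all 3 numbers.

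Of the 8 basement membrane chains, 3 (Col4a1, Col4a2 and Col15a1) read higher at all 3 replicate numbers and 1 (Col4a5) read lower at all 3. Over all genes these shares were 17.6% and 15.7%. Of the 32 other members, 3 read higher at all 3 numbers (Col5a2, Col13a1 and Col14a1) and 6 lower. The median of the basement membrane class changed sign with single arrays, being -0.08 and -0.02 when Fz4-/- replicate 2 or 3 was dropped and -0.03 when wild-type replicate 1 was. It was 0.16 without Fz4-/- replicate 1.

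The fibrillar chains of types I and III were low on Fz4-/- replicate 1. Col1a1, a chain of type I collagen and the main component of fibrous matrix, read 8.79, 11.37 and 10.24 on Fz4-/- replicates 1 to 3 and 11.22, 11.15 and 11.28 in wild type. Replicates 1 and 3 lay below all wild-type arrays and replicate 2 lay above them. The difference was -1.08 (SE 0.59, 95% interval -2.49 to 0.33, 2.12-fold, adjusted p = 1 in limma). It was -0.41 without Fz4-/- replicate 1 and -1.70 without Fz4-/- replicate 2, where fibroblast markers lay at 0.82.

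Col1a2, which pairs with Col1a1, read 8.88, 11.06 and 10.50 against 11.19, 11.05 and 11.18 in wild type, a difference of -0.99 (SE 0.52) that was -0.36 without Fz4-/- replicate 1. Col3a1, the chain of type III collagen in vessel walls and soft tissue, read 8.89, 11.28 and 10.60 against 10.92, 10.94 and 11.37. Its difference was -0.82 (SE 0.58), and on this brightest probe set it was -0.14 without replicate 1 and -1.33 without replicate 2. A dimmer Col3a1 probe set read 7.40, 8.79 and 7.78 on the Fz4-/- arrays and 9.10, 8.93 and 8.65 in wild type. The difference there was -0.90 (SE 0.37, unadjusted p = 0.044 in limma). It did not pass over all probe sets, the groups overlapped, and it is named after its values were seen. These 3 chains kept the same order over the Fz4-/- arrays, replicate 1 lowest and replicate 2 highest. Decorin (Dcn), a proteoglycan that binds collagen fibrils and a marker of fibroblasts, followed that order at 6.41, 11.29 and 9.80, against 9.91, 9.96 and 10.38 in wild type. Fmod, the brightest fibroblast marker, did too, at 8.57, 10.99 and 8.95 against 10.86, 11.42 and 11.44. Fbln1, Mfap4, Mfap5 and Postn of the same list did not, and are named after their values were seen. The part of fibroblast content in the differences of Col1a1, Col1a2 and Col3a1 was not tested.

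The minor fibrillar chains set the diameter and nucleation of fibrils. Col5a1 read -0.80 and Col11a1 -0.99, with 95% intervals of -2.05 to 0.45 and -2.26 to 0.27. Col5a2 did not share the low value: it read 11.03, 10.88 and 10.69 against 10.67, 10.80 and 10.66 in wild type, a difference of 0.16 (95% interval -0.26 to 0.57). On Fz4-/- replicate 1, where Col1a1 and Col3a1 had their lowest values, Col5a2 had its highest. Endothelial markers lay at 0.22, 0.22 and 0.16 on Fz4-/- replicates 1 to 3. The part of endothelial content in the Col5a2 values was not tested. Col5a3 (0.26), Col27a1 (-0.01), Col2a1 (-0.21), Col11a2 (-0.09) and Col24a1 (-0.38) completed the class, the last below the lower quartile of every array, as were 3 of 40 members and 13.8% of all genes.

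As a class, 9 of 11 fibrillar chains had their lowest value on Fz4-/- replicate 1, all but Col5a2 and Col11a2, where 16.1% of all genes did. The count was 3 of 8 for basement membrane chains and 7 of 21 for other chains. The class median was -0.38 with 6 arrays and -0.18 without Fz4-/- replicate 1, where 3 of 11 chains were above 0 and fibroblast markers had a median of 0.39. It was -0.53 when Fz4-/- replicate 3 was dropped, and -0.57 or -0.25 when wild-type replicate 1 or 3 was. On all 6 arrays, no fibrillar chain had groups that did not overlap.

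Type VI collagen forms beaded filaments next to basement membranes and is made by fibroblasts and mural cells. Col6a1 read 5.41, 8.98 and 8.58 on the Fz4-/- arrays and 8.05, 8.25 and 9.69 in wild type, a difference of -1.01 (SE 0.96). Col6a2 read 5.69, 8.15 and 9.17 against 7.28, 7.09 and 9.0 (-0.12), and Col6a3 read 4.57, 5.98 and 6.74 against 5.71, 5.75 and 7.03 (-0.40). All 3 were lowest on Fz4-/- replicate 1, and without it they read 0.12, 0.87 and 0.20. Col6a4 (-0.10) and Col6a5 (0.14) were dim, the former close to the arrays' lower quartiles, which ran from 3.46 to 3.64, and the latter below them on every array.

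The largest difference among the 40 genes belonged to Col13a1, a transmembrane collagen found at cell-matrix and neuromuscular contacts. It read 7.25, 8.73 and 6.81 on the Fz4-/- arrays and 5.44, 5.53 and 6.12 in wild type. Every Fz4-/- array lay above every wild-type array, and Fz4-/- replicate 2 was the farthest away. The means were 7.60 ± 1.00 and 5.70 ± 0.37, a difference of 1.90 (SE 0.50, 95% interval 0.72 to 3.09, 3.74-fold). It did not pass over all probe sets (unadjusted p = 0.00687, adjusted p = 0.885 in limma, and adjusted p = 0.508 with the replicate block). By replicate number the difference was 1.82, 3.20 and 0.69. Leaving out 1 array gave 1.34 to 2.30, without Fz4-/- replicate 2 and 3 respectively, and 2.07 without Fz4-/- replicate 1, the array low in other cell types. Only 1 probe set reads this gene.

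Col14a1, a FACIT chain that lies on the surface of fibrils, read 5.14, 5.01 and 5.69 on the Fz4-/- arrays and 4.23, 3.71 and 4.99 in wild type. The groups were separated, by a small margin at wild-type replicate 3. The difference was 0.97 (SE 0.36, 95% interval 0.11 to 1.83, 1.96-fold, unadjusted p = 0.0317, adjusted p = 1 in limma). By replicate number it was 0.91, 1.31 and 0.70. Dimmer probe sets read 0.37 and -0.26, with overlapping groups. The level lies below the array medians (5.52 to 5.58) on 5 of the 6 arrays.

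Col10a1, the network-forming chain of hypertrophic cartilage, read 3.14, 3.30 and 2.81 against 3.72, 3.57 and 3.35, a difference of -0.46 (SE 0.21). Its groups did not overlap, but on 5 of 6 arrays it lay below 3.64, the highest of the arrays' lower quartiles. Whether the signal lies above background was not tested. The remaining transmembrane chains read 0.35 (Col17a1), -0.03 (Col23a1) and -0.20 (Col25a1). Col17a1, the hemidesmosome collagen, was below the lower quartile of every array.

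Col9a3, a chain of the FACIT collagen IX, had the largest negative difference, at -1.36 (SE 0.59, 95% interval -2.76 to 0.04). It read 4.36, 6.29 and 5.58 on the Fz4-/- arrays and 6.44, 6.16 and 7.71 in wild type, with wild-type replicate 3 highest. The groups overlapped at Fz4-/- replicate 2. Ttr, the thyroid hormone carrier made by choroid plexus epithelium, was also highest on wild-type replicate 3, at 13.50 against 12.54 and 11.76 on the other wild-type arrays. On the Fz4-/- arrays Ttr read 9.40, 10.52 and 10.45. Col9a3 read -0.89 without wild-type replicate 3 and -0.83 without Fz4-/- replicate 1, and the part of choroid plexus RNA in it was not tested.

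The other FACIT chains read -0.59 (Col16a1), -0.51 (Col19a1), -0.38 (Col12a1), -0.20 (Col9a1), -0.03 (Col22a1), 0.12 (Col20a1) and 0.31 (Col9a2). Col19a1 was lower at all 3 replicate numbers, by -0.59, -0.37 and -0.57. Col7a1, the anchoring fibril chain of skin, read 0.05, and Col26a1 read 0.24. Col26a1 and the transmembrane chain Col23a1 were lowest on Fz4-/- replicate 1. Without that array they read 1.07 and 0.84, and their groups did not overlap.

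For Col22a1, a collagen of tissue junctions, the probe sets gave unequal differences, none of which passed the test. The brightest read 4.48 ± 0.03 in Fz4-/- and 4.51 ± 0.04 in wild type, almost flat across the arrays. The next read 3.33 ± 0.71 against 4.84 ± 0.24, a difference of -1.51 (SE 0.36, unadjusted p = 0.00457, adjusted p = 0.798 in limma). The dimmest read 3.51 ± 0.08 against 4.40 ± 0.36, a difference of -0.89 (SE 0.23, adjusted p = 0.850 in limma). In both, the groups did not overlap. These probe sets were singled out after their values were seen, and the Fz4-/- means of the dimmer ones lie near the lower quartiles.

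Col5a1 also had a dimmer probe set whose groups did not overlap, at -1.04 (SE 0.28, adjusted p = 0.885 in limma). Its probe sets read alike, the brightest at -0.80 and the dimmest at -0.95. Dimmer probe sets of Col6a4 (-0.49), Col9a1 (-0.65) and Col19a1 (-0.47) had separated groups as well, lower in Fz4-/-. All of these were named after their values were seen, and the share over all probe sets was not counted. Of 26 genes with several probe sets, 19 had the same sign on all of them and 7 did not.

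**Figure D4:**
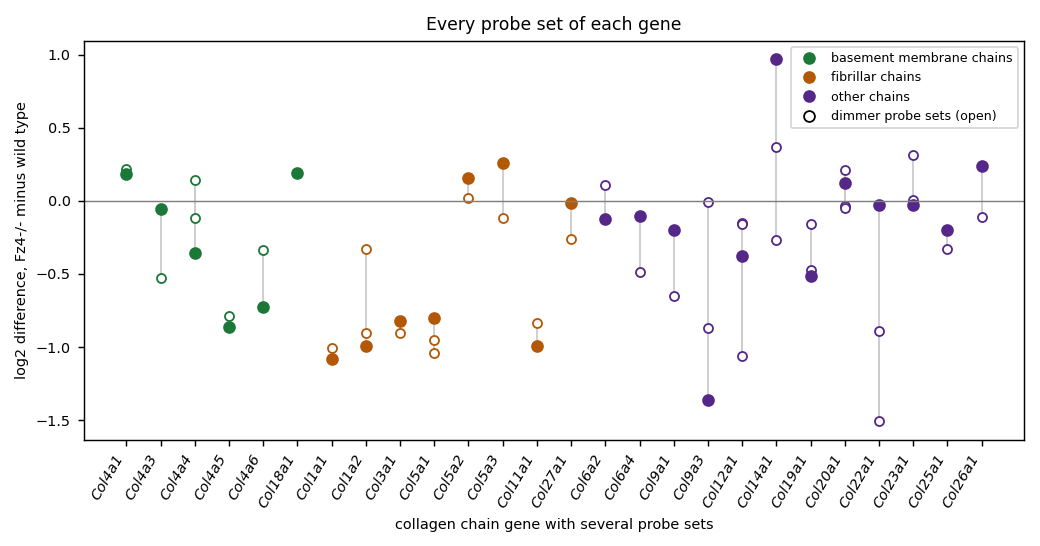
Log2 difference (Fz4-/- minus wild type) of every probe set of the 26 collagen chain genes with more than 1, with the brightest as a filled point and dimmer ones open. Col22a1 spans -1.51 to -0.03 and Col14a1 spans -0.26 to 0.97, while Col1a1, Col3a1, Col4a5 and Col18a1 have probe sets close together.

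Genes that make and process collagen did not pass the test either, with 0 in each of 5 lists at an adjusted p under 0.05 in limma. Of 15 genes listed for prolyl and lysyl hydroxylation and linked steps of helix modification, 10 were above 0 and the median was 0.08. Plod2, a lysyl hydroxylase that prepares cross-links, had the only separated groups of this list (-0.57, SE 0.27), the nearest arrays being 7.24 and 7.28. Of 10 chaperones and export factors, 7 were above 0 with a median of 0.04. Fkbp14, a prolyl isomerase of the endoplasmic reticulum, had the lowest p there (0.42, SE 0.21).

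Propeptide cleavage and cross-linking genes had a median of -0.37, with 8 of 11 below 0. Without Fz4-/- replicate 1, the array low in fibroblast markers, the median was -0.18, and 5 of the 11 had their lowest value there. Pcolce2, an enhancer of procollagen cleavage, read -0.78 (SE 0.28) and Loxl1, a lysyl oxidase, read -0.60 (SE 0.28). Both had separated groups, though Pcolce2 is near the lower quartiles. Pxdn, the peroxidase that forms the sulfilimine cross-links of type IV collagen, went the other way. It read 10.85, 10.94 and 11.31 on the Fz4-/- arrays and 10.56, 10.46 and 10.84 in wild type (0.42, SE 0.21, adjusted p = 1 in limma), just separated.

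Of 10 collagen receptors, 6 were below 0 and the median was -0.08. Adgrg1, an adhesion receptor that binds type III collagen, read 9.55, 10.09 and 10.39 against 9.06, 9.38 and 9.40 in wild type (0.73, SE 0.26), with separated groups. Ddr2, a receptor tyrosine kinase for fibrillar collagen, went the other way at -0.92 (SE 0.35, unadjusted p = 0.0366, adjusted p = 1 in limma). It was lower at all 3 replicate numbers, with overlapping groups, and is named after its values were seen. Basement membrane partners had a median of 0.22 with 7 of 10 above 0, all 7 higher at all 3 replicate numbers, where 17.6% of all genes were. Endothelial markers had a median of 0.14 with 13 of 16 above 0, and 7 of 16 were higher at all 3 numbers. Of the 16, 3 had separated groups, higher in Fz4-/-, where 4.59% of all genes did. They were Pecam1 (0.43), Tie1 (0.49) and Clec14a (1.00), named after their values were seen. The brightest marker, Ptprb, read 0.06, and the 3 below 0 were Flt1 (-0.13), Tek (-0.07) and Cldn5 (-0.01). The part of endothelial content in the partners' values was not tested. The heparan sulfate proteoglycan Hspg2 (perlecan) had the lowest p among them, at 0.73 (SE 0.27, unadjusted p = 0.0292, adjusted p = 1 in limma). For the 5 lists the unadjusted p was under 0.05 for 0, 0, 1, 2 and 1 genes in the order given, beside 4.6% of all genes.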

How the data were processed

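The authors isolated RNA in Trizol, then on RNeasy columns, per the labels' protocols. They deposited log2 values, made by RMA per the submitters' processing notes. RMA corrects background, normalizes arrays and summarises probe sets, and can understate differences of dim genes. Its implementation is not stated there.

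Of 45101 probe sets, 64 controls were left out. The platform annotation gave 34945 of the rest 1 symbol, 932 several and 9160 none, and all 40 members matched a symbol of the RefSeq table (GRCm38.p6). The genotypes were tested two-sided in R 4.3.3 by limma 3.58.1 (lmFit, eBayes) over 6 arrays and 45037 probe sets, and the fit was tested on simulated data. Depth does not apply to arrays, and their number limits the precision. The labels do not name separate animals, so a p-value here reflects only how these samples spread, which may be technical. No 2 arrays shared over 0.351% of values.

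Members and lists were chosen with earlier results of these data known. All members could be named. Array values were set for basement membrane chains, Col1a1, Col1a2, Col3a1 and up to 5 separated chains per direction. Pathway lists gave members past the threshold, else up to 3 separated members, else the lowest p. Marker lists allowed their 2 brightest, not all of which are named. Other array values were chosen after being seen.

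The labels number replicates 1 to 3 in both genotypes. Deviations from group means correlated at 0.244, 0.303 and 0.574 for equal numbers, above the 0.1 taken as pairing. Null replicate 2 also correlated at 0.262 with wild-type replicate 1, and null replicate 1 at 0.124 with wild-type replicate 2. Both lie above 0.1, so numbers 1 and 2 are weakly resolved. Deviations within a genotype cancel out, so these correlations are not independent of one another. The paired fit is an alternative.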

Additional observations from a re-analysis of the deposited data

How the results depend on the processing

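The count of 0 collagen genes past the threshold stayed 0 under quantile normalization, median centring, a filter on dim probe sets, averaging each gene's probe sets, dropping probe sets able to read more than 1 transcript, a robust variance trend, the replicate block, an adjusted p of 0.1 and each array left out. The replicate block changed no collagen call (lowest adjusted p among them 0.442, for Col14a1), but it ended that of Fzd4 (adjusted p = 0.127 in limma) and left 0 of all genes past the threshold, 4 without the block. The count of 3 separated genes became 1 among the 26 genes whose probe set lay above the median level, against 8.83% of all genes so filtered. It was 5 with the mean of all probe sets, 1 higher and 4 lower, against 9.9% of all genes. It ran from 5 to 16 without 1 array, against 14.3% to 29.5% of all genes. Without 1 array the class medians ranged from -0.08 to 0.16 for basement membrane, -0.57 to -0.18 for fibrillar and -0.29 to 0.12 for other chains, the last positive only without null replicate 1. The fibrillar median was -0.80 with the filter on dim probe sets (26 of 40 genes measured) and -0.59 on transcript-specific probe sets (36 of 40). Among the 14 genes whose array values the rule set, 7 of 194 alternatives reversed a sign, all by leaving out 1 array. The replicate block, the variance trend and the adjusted p of 0.1 leave a difference as it is, so those alternatives could not reverse it. Ranges without 1 array were -0.041 to 0.30 for Col4a2, -0.39 to 0.25 for Col4a3 and -1.08 to 0.0070 for Col4a4. They were -1.39 to 0.15 for Col4a6 and -0.19 to 0.52 for Col18a1. Without a sign change, the ranges were -1.41 to -0.40 for Col4a5, 0.40 to 0.99 for Col15a1, -1.70 to -0.41 for Col1a1 and -1.33 to -0.14 for Col3a1. Leaving out both arrays numbered 3, chosen after seeing the data, gave medians of 0.14, -0.35 and -0.03.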
